A study of Mus musculus with 179 samples.

Results

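The genes described here are the 37 genes of the DNA replication machinery, out of 32100 gene identifiers in the deposited tables. They were taken by name: the helicase genes Mcm2 to Mcm7, the genes that load and activate the helicase (Orc1, Orc6, Cdc6, Cdt1, Mcm10, Cdc45 and Gins1 to Gins4), the clamp Pcna and its loader Rfc1 to Rfc5, the polymerase and primase genes Pola1, Prim1, Pold1 and Pole, the strand-processing genes Fen1 and Lig1, the single-strand binding genes Rpa1 and Rpa2, the nucleotide supply genes Tyms, Rrm1, Rrm2, Dut and Tk1, and the uracil repair gene Ung and the histone mRNA gene Slbp. All 37 had an entry under their symbol. Single wild type C57BL6 mouse cells of exocrine pancreas, labelled as acinar cells, were measured after 9 days as organoids in Matrigel, a basement membrane gel. All cells form 1 group, each deposited as its own sample, with no animal or culture named. The RNA was sequenced by Smart-seq3, in which molecules carry unique molecular identifiers (UMIs). The protocol reads methylation and accessibility of DNA from the same cells, and these were not analysed here.

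No contrast between conditions exists and cells of 1 group are not replicates, so every value below is a description with no test and no p-value. Levels are given in CPM, UMIs of a gene relative to all UMIs of a cell or of pooled cells, on the usual CPM scale. A UMI stands for a molecule, so CPM compares molecules between genes and was not divided by transcript length. Intervals are 95% and cover counting error only. The median cell had 165267 UMIs (range 3258 to 329522). In 6 cells the fibroblast marker list stood at 3964 CPM or more, against at most 274 in any other cell. They were set apart, as were 18 cells with under 40000 UMIs. Values per cell and correlations refer to the cells left, 77 with title numbers up to 96 and 78 from 97, called epithelial here (median 171929 UMIs, lowest 41560). The epithelial markers Krt8, Krt18, Epcam and Cdh1 had a UMI in every one of them, and the duct list stood at a median of 6764 CPM. The acinar list had a median of 119.1 CPM, with Ctrb1 at a median of 86.2, and Ptf1a, an acinar identity factor, had a UMI in 1 cell. The defining markers of the acinar label were thus low in most cells (upper quartile of the list 160.2 CPM), while the highest cell reached 198300.

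DNA is copied once per cell cycle. In G1 the origin recognition complex, CDC6 and CDT1 load the ring-shaped MCM helicase onto origins, and at the start of S phase CDC45 and the GINS complex switch it on. The primase and polymerases then copy both strands, held in place by the sliding clamp PCNA, while enzymes of nucleotide synthesis supply the building blocks. Many of these genes are textbook targets of the E2F transcription factors, which act at the passage from G1 to S phase. In adult pancreas acinar and duct cells divide rarely.

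Pooled over all cells, the 37 genes summed to 2892 CPM (2872 to 2912). Without the fibroblast-rich cells the sum was 2958 CPM (2938 to 2979). Per epithelial cell the sum was lowest at 174.2 CPM, had a median of 2498 and was highest at 7394. The quartiles, 817 and 4715, differed by 5.77 times, so cells ranged widely rather than lying around a common level. A median of 35 of the 37 genes had a UMI in a cell (range 10 to 37). When each cell was thinned to 40000 UMIs, the median was 29 (range 4 to 37).

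The MCM helicase, a ring of 6 different subunits, held 648 CPM over all cells (639 to 658). Its summed level in a cell was 11.1 CPM at the lowest, 485 at the median and 2089 at the highest. No epithelial cell was without an MCM UMI, and all 6 genes were detected together in 76.1% of cells. Mcm6 was the most abundant subunit, at 135.5 CPM pooled and 99.7 in the median cell, and reached 440.4. Mcm3 stood at 121.8 CPM pooled, 80.7 in the median cell and 418 at the highest. Mcm5 was close to it at 116.4 pooled, 84.9 in the median cell and 397 at the highest. These 3 genes overlapped across most of their ranges. Mcm7 stood at 111.2 CPM pooled and 97.3 in the median cell, Mcm4 at 97.2 and 69.4. Mcm2 was the lowest at 66.02 CPM pooled and 49.1 in the median cell. Mcm6 exceeded Mcm2 in 88.4% of cells, with 2.05 times as many UMIs in all, although the protein ring holds them in equal number.

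Among the loading genes, Cdt1, which brings MCM to the origin, stood at 59.9 CPM pooled and 30.9 in the median cell, and reached 287. Cdc6, its partner ATPase, stood at 30.8 pooled and only 9.52 in the median cell, with 262 at the highest. Few cells therefore carried most of the Cdc6 molecules. The origin recognition subunit Orc6 stood at 40.9 CPM pooled (median cell 28.6). Orc1 was the lowest member of all at 9.92 CPM (median cell 3.65, highest 70.8), and after thinning it was seen in 29.7% of cells (22.6 to 37.5%). A mean of 1.76 UMIs per cell limits what can be read from it.

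Genes that turn the loaded helicase on were low to moderate. Gins4 (55.1 CPM pooled), Gins1 (47.04) and Gins2 (43.4) stood close together. Gins3 was lower, at 17.3 CPM. Gins4 was the most even of all members: its quartiles were 30.4 and 78.2 CPM, and its variance beyond counting, as a squared coefficient of variation, was 0.185, against 0.159 for genes of like mean. Mcm10 stood at 29.9 CPM and Cdc45 at 29.6. Both had a lower quartile of 0, and their medians were 19.9 and 15.4.

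Sequence around the start sites of these genes was searched because the members moved together, as shown further on. RefSeq promoter windows of GRCm38.p6 (250 bases before to 50 after the start) were found for 31 of the 37 members. An E2F-type word, TTTCCCGC, TTTGGCGC, TTTCGCGC or TTTGCCGC on either strand, stood in 12 of the 31 (38.7%): Mcm3, Mcm5, Mcm6, Mcm7, Orc1, Cdc6, Cdt1, Gins3, Rfc3, Pola1, Pold1 and Lig1. In 8 of them a word lay before the start, and in Mcm3, Cdt1, Pold1 and Lig1, the other 4, words lay only from the start on. The same words stood in 3.59% of the 16362 genes of the deposited table that have a window. The words TTTGGCGC and TTTCGCGC can overlap on opposite strands, as they do in Mcm6. The examples below show the words in capitals, each read 5′ to 3′ along the gene.
Mcm6, chr1:128359725-128359835, minus strand: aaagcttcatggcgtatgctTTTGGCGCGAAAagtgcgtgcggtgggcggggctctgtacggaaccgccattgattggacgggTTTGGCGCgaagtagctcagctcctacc
Mcm5, chr8:75109336-75109387, plus strand: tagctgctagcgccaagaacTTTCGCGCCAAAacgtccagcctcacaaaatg
Cdc6, chr11:98907993-98908040, plus strand: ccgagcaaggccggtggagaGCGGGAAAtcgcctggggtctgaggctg
Orc1, chr4:108579417-108579444, plus strand: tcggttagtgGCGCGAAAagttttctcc
Pola1, chrX:93632266-93632313, minus strand: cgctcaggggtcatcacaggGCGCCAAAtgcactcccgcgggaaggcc

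Mcm6 held 3 such words before its start, 2 of them overlapping, and Mcm5 held 2. The stretch of Cdc6 lies inside the longer GENCODE gene model but overlaps no exon. That of Orc1 overlaps an Orc1 exon, since the GENCODE model of the gene starts at base 108579423, ahead of the word. The stretches of Mcm6, Mcm5 and Pola1 overlap no exon. CCAAT, the core of the NF-Y type word, on either strand, stood in 20 of the 31 members (64.5%), against 41.7% of the genes with a window, and TTTGAA, a word of the CHR type, in 4 (12.9%), against 16.9%. Member windows had a median GC content of 60%, against 52.7% for all windows. A match is a run of letters, not a shown binding site.

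Polymerase and primase genes held 198.1 CPM together. Prim1, the catalytic subunit of primase, stood at 60.9 CPM, Pola1, the polymerase alpha subunit that extends its primers, at 51.3, Pold1, of the lagging strand polymerase, at 46.8 and Pole, of the leading strand polymerase, at 39.2. Their ranges over cells overlapped throughout. Prim1 was the most uneven: its median cell stood at 40.9 CPM, its lower quartile at 1.97 and its highest cell at 436. Rpa1 (84.2 CPM) and Rpa2 (94.6), which coat single-stranded DNA as parts of the same complex, were close, and Rpa2 exceeded Rpa1 in 52.3% of cells.

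Pcna, the clamp itself, had a pooled level of 183.4 CPM (178.4 to 188.5). Its median cell was at 133.9 CPM and its highest at 594. Of the clamp loader, the large subunit Rfc1 stood at 165.6 CPM pooled and 139.6 in the median cell. Its small subunits were lower, with Rfc3 at 85.3, Rfc2 at 63.9, Rfc5 at 47.3 and Rfc4 at 40.4. Rfc1 exceeded Rfc4 in 98.1% of cells. Rfc1 was also the member seen most often after thinning, in 95.5% of cells (90.9 to 98.2%). Lig1, the ligase that joins Okazaki fragments, stood at 182.9 CPM with a median cell at 136.5 and a highest at 684. Fen1, the nuclease that trims the flaps before ligation, stood at 11.5 CPM, 15.9 times below Lig1 in UMIs. Exons of Fen1 overlap genes of the other strand (Tmem258 and Gm10143), and the sources used here do not say whether counting used strand, so its level is uncertain. The same holds for the 12 other members whose exons overlap a gene on the other strand: Mcm7, Orc1, Orc6, Cdc45, Gins2, Rfc2, Rfc4, Rfc5, Pole, Lig1, Slbp and Tk1. On the same strand, exons of Mcm7 overlap Mir25 and Mir93, and those of Rpa1 overlap Gm47300, so these levels are uncertain even with stranded counting. Annotated pseudogenes of Pcna and Tyms could share reads with these 2 genes.

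Nucleotide supply, at 659 CPM for 5 genes (649 to 668), overlapped the helicase in its counting interval. Rrm1, the large subunit of ribonucleotide reductase, was the highest member of all 37, at 206 CPM pooled and 209 in the median cell. Rrm2, its small subunit and the one known to be limited to dividing cells, stood at 48.7 CPM pooled and 25.4 in the median cell. Rrm1 exceeded Rrm2 in 94.2% of cells. Dut, which removes dUTP, stood at 195.3 CPM, Tyms, which makes thymidylate, at 107.2, and Tk1, which salvages thymidine, at 101.8. The median cells of these 3 stood at 177.3, 98.4 and 80.3 CPM. Ung, which cuts uracil out of DNA, was far lower at 20.02 CPM (18.4 to 21.75), with a median cell at 4.23 and a highest at 157.7. Slbp, which binds the stem-loop of histone mRNA, stood at 44.02 CPM with a median cell at 30.04.

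**Figure D1:**
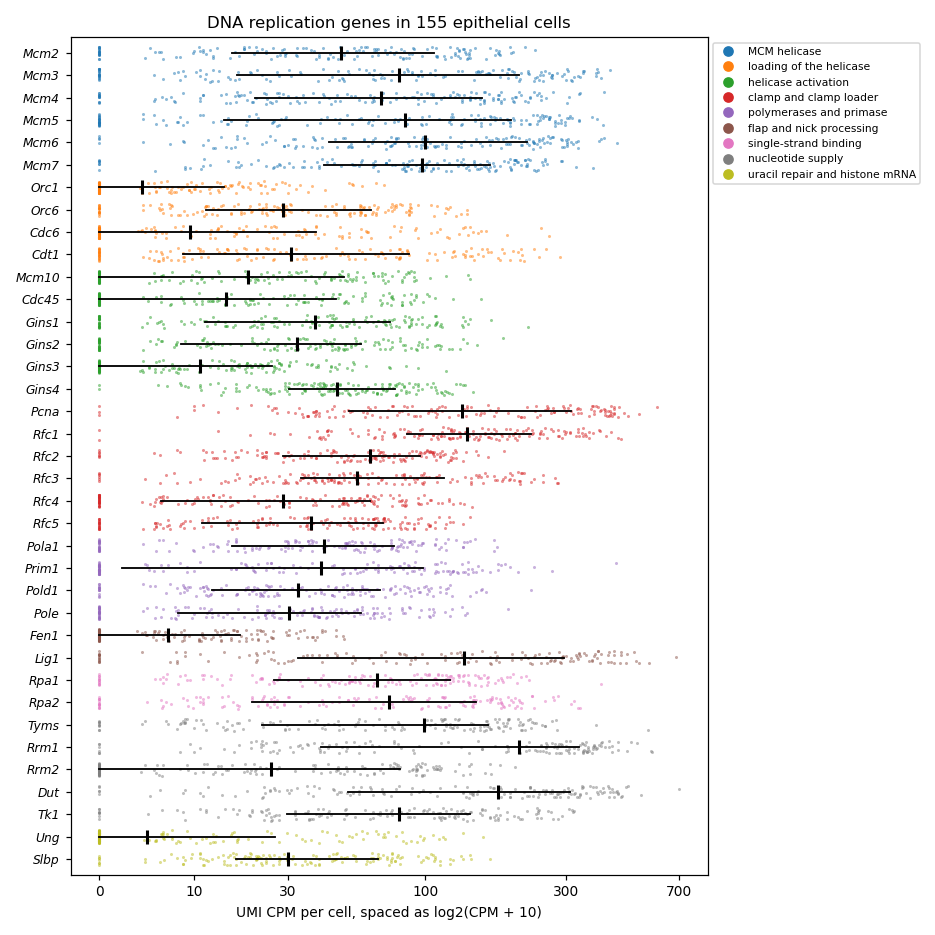
UMI CPM of each of the 37 genes in the epithelial cells, 1 point per cell, on an axis spaced as log2(CPM + 10). Colours are functional groups, vertical ticks are medians and horizontal lines run from the lower to the upper quartile. Most genes reach from 0 to above 100 CPM, while Gins4 and Rfc1 have narrow quartile ranges and Orc1, Cdc6 and Ung lie at or near 0 in many cells.

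All 37 genes varied between cells by more than the median of genes of like mean, Gins4 only just (0.185 against 0.159). Many genes exceed such a median by construction, and their share among all tested genes was not counted. The measure was the squared coefficient of variation beyond the counting part. The median of this measure was 0.600 for the members and 0.254 for all tested genes. Ung was the most uneven, at 2.16 against 0.348 for genes of like mean. Cdc6 followed at 1.86 (0.229) and Orc1 at 1.34 (0.570). Each had a low median and a tail of high cells. Relative to genes of like mean, Cdc6 was the most uneven (8.12 times), then Ung (6.22). Orc1, with a mean of 1.76 UMIs per cell, stood at only 2.35 times, below Mcm3 and Lig1 (both 5.68).

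Across cells the members went up and down together. Pearson's r of log2(CPM + 10) over these cells had a median of 0.66 over the 666 pairs of members, with a range of 0.26 to 0.91, and was at least 0.3 in 665 pairs. Among the 11725 genes that averaged 1 UMI or more in a cell, called tested genes here, the median over all pairs was 0.022, and 3.22% of pairs reached 0.3. All 37 members passed that minimum. Pairs inside a functional group had a median of 0.72 (70 pairs) and pairs across groups 0.66 (596 pairs). The closest pair was Mcm5 with Rpa2 (0.91), followed by Mcm3 with Mcm5 (0.90). Rrm1 and Dut, both of nucleotide supply, reached 0.86, and Rrm1 with Rrm2 0.83. The loosest was Orc1 with Gins4 (0.26), then Ung with Tk1 (0.33). Within a complex, Gins3 and Gins4 were the least alike at 0.41. Orc1 (a mean of 1.76 UMIs per cell), Gins3 (3.01) and Ung (3.56) had few counts, which limits what these low values show. The 15 MCM pairs had a median of 0.80 and the 10 nucleotide supply pairs 0.82. These cells share 1 experiment as far as the labels say, and differ in depth: r of single members with the log total of UMIs ran from 0.07 to 0.29.

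**Figure D2:**
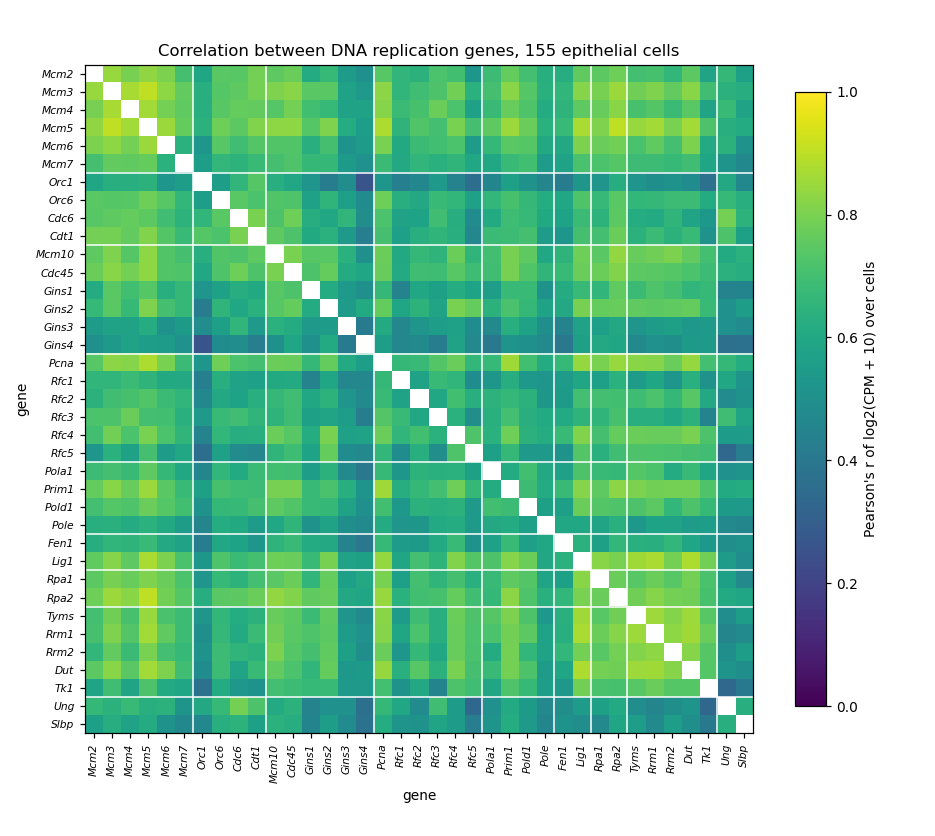
Pearson's r of log2(CPM + 10) over the epithelial cells for each pair of the 37 genes, with white lines between functional groups and the diagonal left blank. The colour scale runs from 0 to 1. Rows of Gins4, Orc1, Slbp, Gins3 and Ung have the lowest values (down to 0.26), and those of Mcm5, Rpa2, Mcm3 and Lig1 the highest (up to 0.91).

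Summed levels of the functional groups also went together. The MCM sum had an r of 0.86 with the loading genes, 0.85 with helicase activation, 0.87 with the polymerases and primase, 0.89 with the clamp and its loader, 0.90 with Rpa1 and Rpa2 and 0.88 with nucleotide supply. The sum of Ung and Slbp had lower values, with r of 0.67 to the MCM sum, 0.74 to the loading genes, 0.73 to the clamp and its loader, 0.57 to nucleotide supply and 0.56 to Fen1 and Lig1. The member closest to Ung was Cdc6 (0.79), then Cdt1 (0.72).

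Each gene was then set against the MCM sum, with the gene itself left out where it was part of the sum. All 37 members had an r of at least 0.3, where 15.6% of all tested genes did, and none was at -0.3 or less, where 3.84% of all tested genes were. Of tested genes averaging 5 UMIs or more, as 33 members did, 20.7% reached 0.3. The median of the members was 0.78, and that of all tested genes 0.04. The lowest were Slbp and Gins4 (both 0.58) and Gins3 (0.60), and the highest Mcm3 and Mcm5 (both 0.91) and Mcm4 (0.89). Members with an E2F-type word in their window had a median of 0.78 and those without one 0.80. With the sum of mitosis genes described next, the medians were 0.55 and 0.65, and neither difference was tested.

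Against a sum of 23 mitosis genes, such as Top2a, Ube2c, Stmn1 and Kif23, the members spread out. With this sum 36 of 37 reached 0.3, against 16.9% of all tested genes and 22.7% of those averaging 5 UMIs or more. The median of the members was 0.59. Rrm1 was highest at 0.84, followed by Rrm2 (0.81), Dut (0.79), Tyms (0.77), Tk1 (0.75) and Rfc5 (0.74). Ung was lowest at 0.15, then Slbp (0.32), Orc1 (0.33) and Cdc6 (0.37). These low values join ranges of cells in which r of these genes had opposite signs, as given further on. Rfc5 (0.65 with the MCM sum) and Tk1 (0.69) had a somewhat higher r with the mitosis sum. Rrm2 (0.77 with the MCM sum) and Rrm1 (0.83) were nearly level between the sums. Every other member had the higher r with the MCM sum. The share of all tested genes with a higher r to the mitosis sum was not counted. Orc1 and Cdc6 load the helicase, and Cdt1, which does so with them, stood at 0.45 with the mitosis sum and 0.82 with the MCM sum. When a straight-line fit on the log MCM sum was removed, r with the mitosis sum was 0.72 for Rrm1 and -0.46 for Ung. It was negative for 10 members, and at or under -0.3 for Ung alone. When a straight-line fit on the log mitosis sum was removed instead, r with the MCM sum stayed at 0.34 or more for every member. Such a fit does not hold a sum fixed where the relation is curved, as described below. Both adjusted values were computed for members only, so no share of all tested genes stands beside these counts.

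**Figure D3:**
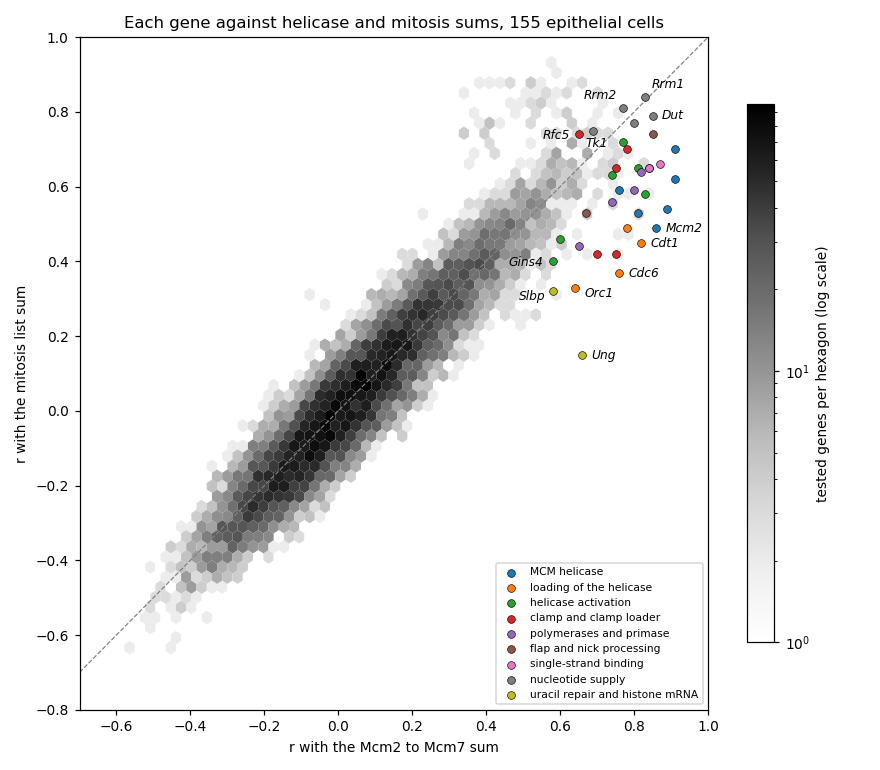
Pearson's r of each gene with the Mcm2 to Mcm7 sum (horizontal) and with the mitosis list sum (vertical) over the epithelial cells. Grey hexagons count the 11725 tested genes on a log scale, coloured points are the 37 members by functional group, and the dashed line marks equal values. Members lie to the right, with Ung lowest (0.15 vertically) and Rrm1 highest (0.84).

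The relation between the helicase and mitosis sums followed a loop rather than a line. Over all epithelial cells r was 0.64 (Spearman's rho 0.56, and r 0.62 without the 2 cells farthest from the median MCM sum). In the 78 cells at or below the median mitosis sum (83.6 to 1427 CPM) r was 0.72, and 0.69 without the 2 farthest cells. In the 77 cells above it (1458 to 9654 CPM) r was -0.44, and -0.69 without the 2 farthest. MCM levels ran from 11.1 to 1696 CPM in the former cells and from 103.4 to 2089 in the latter. This division was made after the plot of cells was seen, and it narrows the range of the mitosis sum in each set. The r of the MCM sum with the log total of UMIs was 0.08 and 0.01 in the 2 sets.

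The 77 cells above the median mitosis sum gave members of both signs. At or under -0.3 with the mitosis sum stood 17 of 37 members, against 1.31% of all tested genes, and none reached 0.3 (3.23% of all tested genes did). Ung had the lowest r (-0.69), then Cdc6 (-0.62), Mcm2 (-0.51), Mcm3 and Slbp (both -0.50), Cdt1 (-0.49) and Rfc3 (-0.48). All 6 MCM genes and all 4 loading genes were among the 17, as were Pcna (-0.39), Rfc1 (-0.40), Prim1 (-0.33) and Cdc45 (-0.34). Mcm5 (-0.31) was just inside that limit and Pole (-0.30 when rounded) just outside. Nucleotide supply genes lay near or above 0, with Dut at 0.00, Tyms and Rrm2 at 0.03, Rrm1 at 0.11 and Tk1 at 0.23. Rfc5 was the highest at 0.27. Members of other groups also lay near 0, among them Rfc2 (-0.03), Gins2 (-0.04), Gins1 (-0.05), Rfc4 (-0.07), Lig1 (-0.08) and Pola1 (-0.09). The clamp loader, helicase activation and polymerase groups were thus each divided, and no test between groups was made. The members still went together in these cells: the median r over pairs was 0.50 (range -0.09 to 0.87), and all 37 kept an r of at least 0.3 with the MCM sum, where 3.94% of all tested genes did. In the 78 other cells 36 of 37 members reached 0.3 with the mitosis sum, against 16.7% of all tested genes, from Gins4 at 0.29 to Dut at 0.79. Ung stood at 0.62 there, Cdc6 at 0.61, Orc1 at 0.54 and Slbp at 0.38, all negative in the 77 cells above. No member was at -0.3 or less in the 78 cells, against 3.99% of all tested genes.

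**Figure D4:**
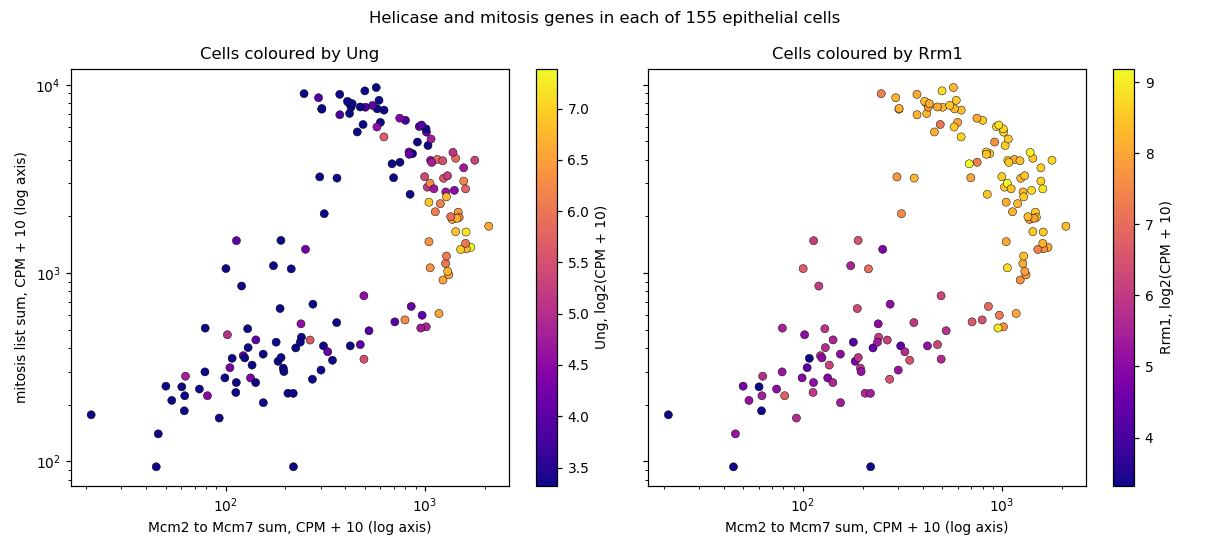
Each epithelial cell by its Mcm2 to Mcm7 sum (horizontal) and its mitosis list sum (vertical), in CPM + 10 on log axes, coloured by Ung (left) or Rrm1 (right) as log2(CPM + 10). Cells form a loop: the highest MCM levels, up to 2089 CPM, lie at middle mitosis levels, and cells with the highest mitosis sums, up to 9654 CPM, have lower MCM levels. High Ung is found on the right of the loop and is low at its top, while Rrm1 is high on the right and at the top.

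Single cells at the ends of the loop give examples. Acinar19 had the highest MCM sum, 2089 CPM, a mitosis sum of 1764 and a UMI of all 37 genes, with Ung at 84.99 CPM, Cdc6 at 120.4, Cdt1 at 212.5 and Rrm1 at 319. Its other nucleotide supply genes were Dut at 304.5 CPM, Tk1 at 290.4, Tyms at 219.6 and Rrm2 at 21.25. Acinar4 had the highest mitosis sum, 9654 CPM, and an MCM sum of 561. It had Rrm1 at 299 CPM, Dut at 195.7, Tyms at 123.6, Tk1 at 97.83 and Rrm2 at 61.8, with Cdc6 at 5.15, Cdt1 at 30.9 and no UMI of Ung. Of the 5 nucleotide supply genes, all but Rrm2 were thus lower in Acinar4 than in Acinar19. Acinar92, the cell with the most Ung (157.7 CPM), had an MCM sum of 1696 and a mitosis sum of 1359. Acinar52 had the lowest MCM sum, 11.1 CPM, all of it Mcm7, and 15 of the 37 genes with a UMI. It was the cell richest in acinar genes, at 198300 CPM of the acinar list, and whether that bears on its replication genes was not tested.

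Replication genes outside the 37 were taken from a list of 42. With the MCM sum 37 of the 42 reached 0.3, against 15.6% of all tested genes, with a median of 0.69. The most abundant were Nasp, a histone chaperone (181.1 CPM, r 0.87), Pclaf, a PCNA-binding protein (165.5 CPM, r 0.69), Gmnn, which blocks CDT1 after origins have fired (125.5 CPM, r 0.85), and Pole3, a polymerase epsilon subunit (104.7 CPM, r 0.64). Pclaf was closer to the mitosis sum, at 0.87. Of the 5 that did not reach 0.3, chosen for naming after their values were seen, the origin recognition subunits Orc3 and Orc4 (both 0.00) and Orc5 (0.25) and the helicase Mcm9 (0.08) had an r near 0 or low. Pold4, a small polymerase delta subunit, went the other way at -0.37. Among 15 genes of G1/S control, 13 passed the minimum of 1 UMI and 8 reached 0.3, led by E2f1 (0.78, 36.5 CPM). Ccnd1, the most abundant at 864 CPM, stood at 0.09, Cdkn1a, an inhibitor of cyclin-dependent kinases, at -0.34 (438 CPM), and Cdk4 at 0.58 (263 CPM). Cdkn1c (0.50 UMIs per cell) and Ccne2 (0.93), also named after their values were seen, were under the minimum.

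Of the 50 genes with the highest r with the MCM sum, 21 were members and 14 were from the list of other replication genes. Among the 11725 tested genes were 37 members and 42 of that list. The members include the MCM genes themselves, each set against the sum of the others. The 15 closest non-members were Uhrf1 (0.88), Hells and Nasp (both 0.87), Gmnn and Hat1 (both 0.85), Dtymk and Tipin (both 0.84), Timeless, Nup85 and Ticrr (each 0.82), Dnmt1, Dnajc9 and Chaf1a (each 0.81), and Clspn and Chaf1b (both 0.80). Uhrf1, Hells and Dnmt1 are known for maintaining DNA methylation on newly copied strands, Nasp, Hat1 and Chaf1a for handling new histones, and Tipin, Timeless and Clspn for protecting the fork. Dtymk makes thymidine diphosphate and is a nucleotide supply gene outside the 37. Uhrf1 stood at 0 CPM in the lowest cell, 35.4 in the median cell and 303 in the highest.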

How the data were processed

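RNA of 179 single cells was measured by Smart-seq3. The authors deposited 2 tables of raw counts, UMI counts and read counts, with a row per cell, both with no normalization; UMI counts were used and read counts served as an alternative. Per the submitters' processing notes, STAR, featureCounts, GRCm38 and mm10 were used, with no version or role given. How UMIs were collapsed, whether strand was used and any filter are not given in the sources used here.

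Sample titles gave the row of each cell. Gene symbols came from GENCODE M21 (GRCm38), which named 31985 of the 32100 identifiers. Cells needed 1000 UMIs, which kept all. Those with 1000 CPM or more of fibroblast markers were set apart, and correlations used cells with at least 40000 UMIs, which left out 18 epithelial cells and kept 155. Intervals are exact Poisson or exact binomial. Pearson's r was taken on log2(CPM + 10), for genes averaging 1 UMI or more in a cell, and the 0.3 level was a round setting. Variance beyond counting was estimated by moments and set beside a median running over 101 genes ranked by mean. No doublet caller was run, since the labels give each sample as a single cell. Promoter sequences are those of RefSeq (GRCm38.p6). Protein sequences were not used here.

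Depth was lowest in the 24 cells with title numbers 97 to 120 (median 43006.5 UMIs), and 13 of them entered the correlations. The members and lists were chosen with earlier results of these data known. The genes named are all members, the 4 highest of each list, markers, and the 15 genes closest to the MCM sum. Outside that rule, and after their values were seen, Orc3, Orc4, Orc5, Mcm9, Pold4, Cdkn1c and Ccne2 were named, with 8 of the 15 genes of lowest r. Scripts were tested on simulated data. Python 3.11.15, numpy 2.4.6, pandas 2.3.3, scipy 1.17.1 and matplotlib 3.10.9 were used.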

Additional observations from a re-analysis of the deposited data

How the results depend on the processing

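The pooled level of 2892 CPM was 2865 with read counts, 2958 in epithelial cells with at least 1000 UMIs and 3031 in those with at least 100000, 2827 for title numbers up to 96, 2981 from 97, 3288 with mitochondrial and ribosomal protein genes left out of the total, and 2700 with equal weight per cell. The 3 other settings tried for it stayed within its counting interval. The median r over pairs (0.665) was 0.476 after thinning each cell to 40000 UMIs and 0.497 in cells above the median mitosis sum. The median r with the MCM sum (0.779) was 0.648 and 0.646 in these. In those cells above the median the median r with the mitosis sum (0.592) reversed to -0.276, and the number of members at 0.3 or more went from 36 to 0. Over all 18 settings the number with an r of at least 0.3 to the MCM sum was 33 to 37, the 33 being all members that average 5 UMIs or more. Over the 15 settings that did not divide cells by the mitosis sum or drop members of low mean, r of Ung with the mitosis sum was 0.08 to 0.22, that of Rrm1 0.77 to 0.87, and 8 to 10 of the 10 members leaning most to the MCM sum were shared with the order given. The order changed when cells were divided: 6 of the 10 were shared above the median mitosis sum and 5 at or below it. There r of Ung with the mitosis sum was -0.69 and 0.62. Leaving out the cell richest in acinar genes, leaving out the 2 farthest cells and dividing cells by the mitosis sum were chosen after seeing the data. At 40000 UMIs a single UMI is worth 25 CPM, so Orc1, Fen1, Gins3 and Ung are at the limit of what the depth resolves. No paired analysis was possible because the series has 1 group.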

Other observations

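At the other end of the range, 450 of the 11725 tested genes (3.84%) had an r of -0.3 or less with the MCM sum. The 15 lowest were looked up after their values were seen. Among them were Mxd4, a repressor that competes with MYC for its partner MAX (r -0.58 with the MCM sum and -0.74 with the mitosis sum), Btg2, an antiproliferative gene (-0.51), Ypel3 (-0.54) and Ypel5 (-0.56), and the nuclear long non-coding RNA Neat1 (-0.57). Neat1 stood at 29.3 CPM in the lowest cell, 608 in the median cell and 7205 in the highest. Ctsd, a lysosomal protease (-0.55), and Sqstm1, an autophagy receptor (-0.51), lay in the same range. The lowest of all was Fam214b (-0.62).

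The 6 cells rich in fibroblast genes also carried replication genes. Their summed level of the 37 members ran from 366 to 2874 CPM with a median of 1018. Acinar105 was the highest, with an MCM sum of 482 CPM and a mitosis sum of 7569, and 35 of the 37 genes detected. Acinar5 and Acinar188 followed, with MCM sums of 302.5 and 275 and mitosis sums of 1517 and 2563. The MCM sums of Acinar6, Acinar44 and Acinar182 lay between 38.7 and 82.2 CPM, with mitosis sums of 70.97 to 149.5. Ung had a UMI in 1 of the 6 cells, and Pcna in all 6.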
